A study of Mus musculus with 37 samples.

Results

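ATAC-seq peaks at the start sites of protein-coding genes were examined in fully grown mouse oocytes at the germinal vesicle (GV) stage. A peak was taken as a TSS peak when its summit lay within 500 bp of the transcription start site (TSS) that the RNA-seq table of GV oocytes of the same genotypes gives for a protein-coding gene. The choice used position only, and no expression value or peak height. In all, 10126 of the 316630 peaks in 6 libraries were TSS peaks, and 6125 of the 14131 protein-coding genes (43.3%) had a TSS peak in at least 1 library.

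The oocytes came from C57BL/6 females of the CabZ line, in which Zp3-Cre, active in growing oocytes, deletes an exon of a floxed Cabin1 allele. CabZ KO oocytes carry Zp3-Cre and 2 floxed alleles. CabZ Het controls carry Zp3-Cre and 1 floxed allele, so Cre is present and 1 copy of Cabin1 is lost in the controls too. ATAC-seq was done on pooled GV oocytes in 3 libraries per genotype (replicates A, B and C, the order in which values are listed), whose titles read CanZ and whose records label the genotypes only Cabin1 Het and KO, and RNA-seq in 4 libraries per genotype, labelled Cabin1_Het and Cabin1_KO. The name CabZ, the Cre and the alleles are those of the study's methods, which also describe the RNA-seq libraries as pools of oocytes, whereas the sample records speak of individual cells. The records do not tie libraries to single females, so p-values measure the spread between libraries.

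Cabin1 is a subunit of the Hira complex, the chaperone that deposits the histone variant H3.3 outside DNA replication. In ATAC-seq, the Tn5 transposase cuts DNA that is not covered by nucleosomes. At active start sites nucleosomes are commonly displaced by transcription factors and polymerase, and the site is then cut more often than its surroundings. Fully grown GV oocytes have compacted chromatin and largely shut down transcription, while the mRNA stored during growth remains. An RNA level in such cells therefore describes stored as well as newly made transcripts.

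Start sites with a peak in many libraries often held a CCAAT box, the motif bound by the trimeric factor NF-Y, just upstream of the start. The stretches shown here lie directly upstream of the start, lie in no annotated exon, and are written 5′ to 3′ in the direction of the gene on the GRCm38 genome sequence from RefSeq. Capitals mark CCAAT or its reverse complement ATTGG. The first 2 belong to genes with a TSS peak in all 6 libraries, and the 91 bases of Dtl span the whole gap to the opposed gene Ints7. H1foo, with a TSS peak in 4 libraries, encodes the oocyte linker histone, and Coa6, also in 4, was among the genes whose RNA was lower in CabZ KO. The last, 4931408C20Rik, had the highest mean fold enrichment among genes with a TSS peak in all 6 libraries, and no CCAAT box in the stretch.
Dtl (chr1:191575545-191575635, − strand): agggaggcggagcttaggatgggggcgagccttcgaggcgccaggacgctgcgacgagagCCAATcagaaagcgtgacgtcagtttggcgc
Fam72a (chr1:131527703-131527902, + strand): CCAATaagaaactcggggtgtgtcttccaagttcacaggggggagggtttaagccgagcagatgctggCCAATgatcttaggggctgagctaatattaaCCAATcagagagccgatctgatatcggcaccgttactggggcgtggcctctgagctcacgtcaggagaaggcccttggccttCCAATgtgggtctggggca
H1foo (chr6:115944738-115944937, + strand): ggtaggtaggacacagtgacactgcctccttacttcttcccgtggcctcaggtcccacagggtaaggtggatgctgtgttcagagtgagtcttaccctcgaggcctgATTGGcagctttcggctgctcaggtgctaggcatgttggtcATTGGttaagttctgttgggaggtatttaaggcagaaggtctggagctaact
Coa6 (chr8:126422315-126422514, + strand): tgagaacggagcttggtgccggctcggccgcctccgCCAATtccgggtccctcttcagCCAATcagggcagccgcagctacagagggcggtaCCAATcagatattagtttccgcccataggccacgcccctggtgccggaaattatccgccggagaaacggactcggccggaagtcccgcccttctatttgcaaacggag
4931408C20Rik (chr1:26687461-26687660, − strand): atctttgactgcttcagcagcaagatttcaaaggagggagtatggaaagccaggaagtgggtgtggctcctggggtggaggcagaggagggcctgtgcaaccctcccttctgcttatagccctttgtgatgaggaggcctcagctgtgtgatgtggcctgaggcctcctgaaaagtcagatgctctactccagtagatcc

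The libraries differed in depth along with genotype. The number of reads is not known, but the background pileup that MACS2 used for the whole genome could be recovered from the peak lists. It was 1.54, 1.75 and 2.41 in CabZ Het and 1.14, 1.22 and 1.03 in CabZ KO, so every CabZ Het library was above every CabZ KO library (exact permutation test, two-sided, p = 0.1, the smallest that 3 against 3 libraries allow). The total number of peaks ranged from 19160 (CabZ KO B) to 111327 (CabZ Het C). Depth and genotype thus cannot be told apart in any count of peaks, or any height of peaks, given here. Expression of the targeted gene was checked in the RNA-seq libraries. Cabin1 was at 0.101, 0.0891, 0.159 and 0.128 FPKM in the CabZ Het libraries and at 0.0482, 0.0231, 0.0125 and 0.0129 FPKM in the CabZ KO libraries. The groups did not overlap (0.119 ± 0.0312 against 0.0242 ± 0.0167, SD, n = 4, exact permutation test, two-sided, p = 0.0286). FPKM is given per kb of the whole gene span, introns included.

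Peak summits gathered at gene starts in all 6 libraries. The 500-bp windows cover 0.490% of the genome, whereas TSS peaks made up 2.65, 3.26 and 3.71% of the peaks of CabZ Het and 3.34, 2.53 and 2.15% of those of CabZ KO. The share of peaks was thus 4.38 to 7.58 times the share of the genome. In 100-bp steps around the start, the step from 100 bp upstream to the start itself held the most summits in every library. Relative to the flanks 2000 to 3000 bp away, this step held 4.28, 6.00 and 7.47 times as many summits in CabZ Het, and 5.18, 3.12 and 2.24 times as many in CabZ KO. Of the summits within 500 bp, 53.9 to 59.5% lay upstream of the start. Peaks just inside and just outside the 500-bp limit were described without a test: the last 50 bp inside it held 30 to 166 peaks per library with a median fold enrichment of 3.94 to 4.68, and the first 50 bp beyond it held 34 to 156 with a median of 3.81 to 4.43.

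**Figure D1:**
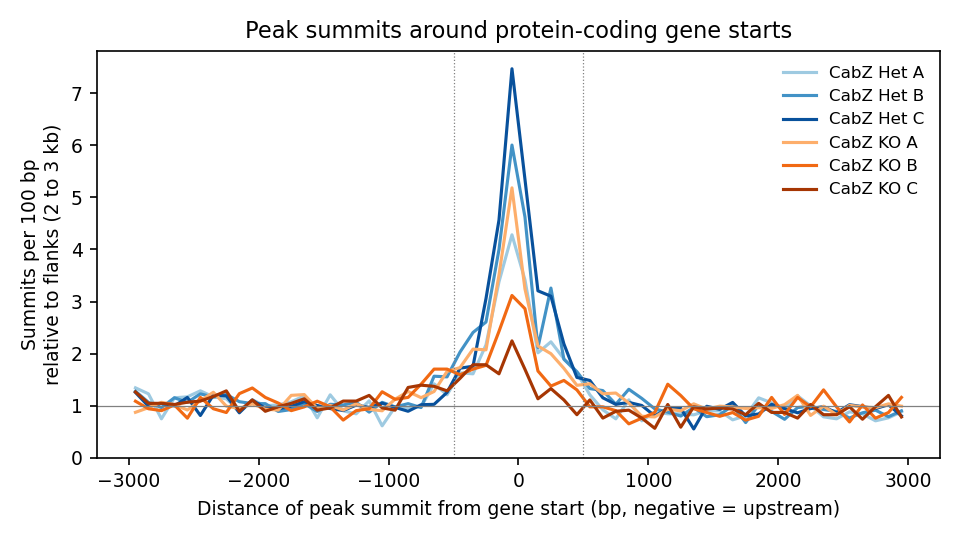
Number of peak summits in 100-bp steps of distance from protein-coding gene starts (x axis, bp, negative upstream), divided by the mean of the flanks 2000 to 3000 bp away (y axis), with 1 line per library and dotted lines at 500 bp. Every library is highest just upstream of the start, from 2.24 times the flanks in CabZ KO C to 7.47 times in CabZ Het C.

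The number of genes with a TSS peak was 1265, 2440 and 4593 in CabZ Het and 1694, 530 and 690 in CabZ KO. The means were 2766 ± 1688 and 971 ± 631 genes (SD, n = 3), and the groups overlapped, since CabZ KO A was above CabZ Het A (exact permutation test, two-sided, p = 0.2). The share of peaks that lay at a TSS was 3.21 ± 0.531% in CabZ Het and 2.67 ± 0.608% in CabZ KO (SD, n = 3, exact permutation test, two-sided, p = 0.3). Both comparisons were within the spread between libraries. When the 19160 strongest peaks of each library were taken, 703, 1160 and 2009 genes had a TSS peak in CabZ Het, and 944, 530 and 479 in CabZ KO (exact permutation test, two-sided, p = 0.2). This order followed the total number of peaks, except between CabZ KO B and C.

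**Figure D2:**
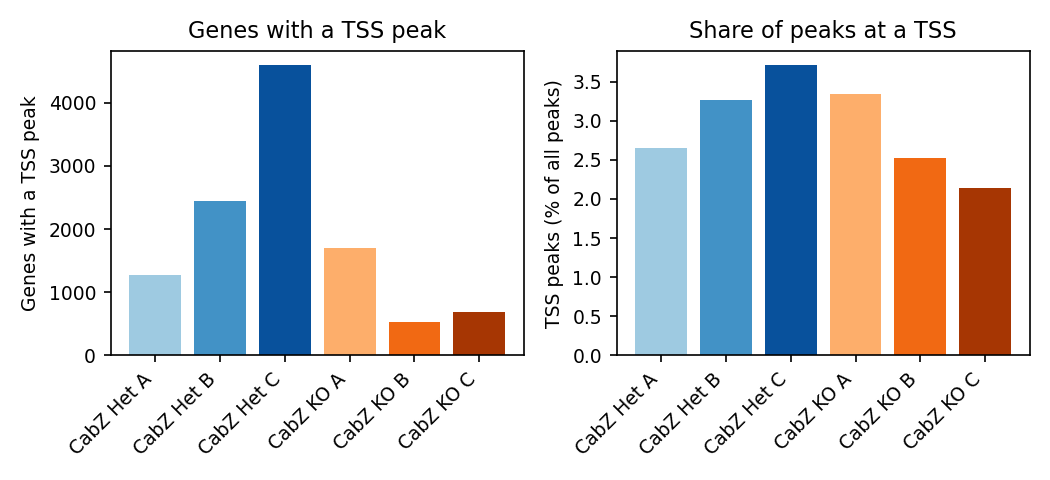
Left, number of protein-coding genes with a TSS peak in each of the 6 libraries; right, TSS peaks as a percentage of all peaks of the library. Bars are single libraries, blue for CabZ Het and orange for CabZ KO; CabZ Het C is highest in both panels (4593 genes, 3.71%), and the genotypes overlap.

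TSS peaks were small and many rested on few reads. The median pileup at the summit, which is the number of extended reads over that base, was 10, 11 and 14 in CabZ Het and 9, 9 and 8 in CabZ KO. A pileup of 8 has an exact 95% Poisson interval of 3.45 to 15.8, and one of 14 an interval of 7.65 to 23.5, for counting error only. The median fold enrichment over the genome background was 4.33, 4.36 and 4.40 in CabZ Het and 4.68, 4.50 and 4.43 in CabZ KO, on the scale (pileup + 1)/(background + 1). Every CabZ KO library was above every CabZ Het library (exact permutation test, two-sided, p = 0.1, the smallest possible), and the same held for peaks outside genes. Peaks outside genes had medians of 3.94, 4.0 and 3.52 in CabZ Het and 4.21, 4.50 and 4.43 in CabZ KO. Against all other peaks of the same library, the log2 of the median was higher at the TSS by 0.138, 0.126 and 0.322 in CabZ Het and by 0.152, 0 and 0 in CabZ KO (mean 0.123 ± 0.119, SD, n = 6, exact sign-flip test over libraries, two-sided, p = 0.125). The difference was above 0 in 4 libraries and 0 in 2, and with 2 differences of 0 this p is the smallest that the test can give, so it could not pass. By the mean of log2 values, an alternative chosen after the data were seen, the difference was above 0 in 6 of 6 libraries (mean 0.108, exact sign-flip test, two-sided, p = 0.03125, the smallest that 6 libraries allow).

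A TSS peak found in 1 library was often not found in another. Of the 6125 genes, 3050 had a TSS peak in 1 library, 1713 in 2, 865 in 3, 373 in 4, 95 in 5 and 29 in all 6. The library with the most peaks held most of the genes found in the others: CabZ Het C also had a TSS peak at 68.4% of the CabZ Het A genes, 68.1% of the CabZ Het B genes, and 67.7, 71.7 and 71.2% of the genes of CabZ KO, beside 32.5% of all genes. In the other direction, 18.8% of the CabZ Het C genes were found in CabZ Het A and 8.27% in CabZ KO B. Of the CabZ KO B genes, 41.5% were found in CabZ KO A, beside 12% of all genes, and 47.9% in CabZ Het B, beside 17.3% of all genes. Genes with a TSS peak in at least 4 of 6 libraries numbered 497 (3.52% of all protein-coding genes) and those with a peak in all 6 numbered 29 (0.205%).

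By the mean of the 6 libraries, the strongest of the 29 was the start of 4931408C20Rik, a gene known by the name of a RIKEN clone, on chromosome 1. Its fold enrichment was 7.48, 11.3 and 15.5 in CabZ Het and 23.9, 15.3 and 11.3 in CabZ KO, and the genotypes overlapped. No RNA-seq read fell on this gene in the 4 CabZ Het libraries, whereas the CabZ KO libraries had 6, 13, 13 and 14 reads, or 0.106, 0.251, 0.240 and 0.272 FPKM (exact permutation test, two-sided, p = 0.0286, the gene being singled out after its values were seen). A strong peak at this start was thus present in oocytes in which the gene was listed at 0.

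Hjurp, the chaperone of the centromeric histone CENP-A, came next, with fold enrichments of 10.6, 11.6 and 15.8 in CabZ Het and 13.1, 10.8 and 9.35 in CabZ KO, a pileup of 18 to 53, and 8.42 ± 1.22 FPKM in CabZ Het (SD, n = 4). The values of the genotypes overlapped. A single peak lay between Dtl, the substrate receptor of a ubiquitin ligase that acts in S phase, and Ints7, a subunit of the Integrator complex. It measured 8.27, 6.18 and 9.68 in CabZ Het and 8.43, 6.30 and 5.41 in CabZ KO. Dtl was at 1.34 FPKM and Ints7 at 0.0187 FPKM in CabZ Het, so the pair shared a peak and not a level. Fam72a and Srgap2, the latter a regulator of the cytoskeleton, likewise shared a peak of 3.94, 6.55 and 7.62 in CabZ Het and 6.56, 4.95 and 6.89 in CabZ KO.

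Among the other leading genes, Slc38a8, encoding an amino acid transporter, had fold enrichments of 5.51, 5.09 and 6.16 in CabZ Het and 8.43, 8.55 and 7.38 in CabZ KO, with no overlap between the genotypes. Tmem231, encoding a protein of the ciliary transition zone, had the lowest mean of the 29 genes (4.37). Its values were 6.69, 4.36 and 4.4 in CabZ Het and 3.75, 3.6 and 3.44 in CabZ KO, again with no overlap. Those in CabZ KO B and C, on pileups of 7 and 6, equalled the lowest value of any TSS peak in these libraries. The peak of Baiap2l1, which links membranes to actin, measured 6.30, 7.27 and 7.92 in CabZ Het and 6.09, 7.20 and 4.43 in CabZ KO. That of Crocc, encoding the ciliary rootlet protein rootletin, measured 5.12, 5.46 and 9.09 in CabZ Het and 6.09, 4.05 and 6.89 in CabZ KO, while Crocc RNA was at 0.00247 FPKM in CabZ Het. The genes in all 6 libraries also included the replication factor gene Gins2, the Emi1 gene Fbxo5, which acts in meiosis, and the DNA glycosylase gene Ogg1, with mean fold enrichments of 5.35, 4.83 and 5.64. Gins2 too was without overlap, at 3.15, 5.82 and 5.28 in CabZ Het and 6.09, 5.85 and 5.90 in CabZ KO. Apart from Slc38a8, Tmem231 and Gins2, the genotypes overlapped at every gene of the 29. For 3 against 3 libraries, complete separation at a gene has p = 0.1 (exact permutation test, two-sided).

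**Figure D3:**
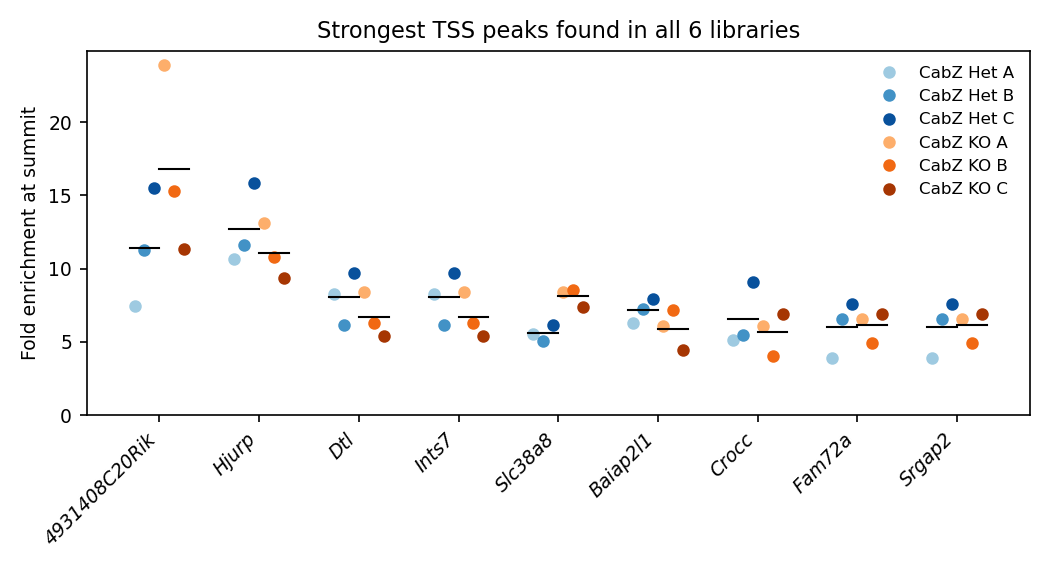
Fold enrichment at the summit (y axis, from 0) of 9 of the 11 genes with the highest mean among genes with a TSS peak in all 6 libraries; points are single libraries and black lines are the means of the 3 CabZ Het (left) and 3 CabZ KO libraries (right). Dtl and Ints7, and Fam72a and Srgap2, share 1 peak each, and the genotypes overlap at each start except Slc38a8.

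The height of these peaks could be compared between the genotypes for the 29 genes with a value in every library. In limma on log2 fold enrichment, 0 of 29 genes passed 0.05 after Benjamini-Hochberg adjustment (0%), and 2 had an unadjusted p under 0.05. The CabZ KO minus CabZ Het difference ranged from -0.50 to 0.55 on the log2 scale with a median of 0.03, it was above 0 for 16 genes, and its standard error was 0.27. Differences of this size at a single start were not detectable at this depth. The largest differences were those of 4931408C20Rik (0.55, SE 0.27) and Slc38a8 (0.54, SE 0.27), both with a limma adjusted p of 0.524. With the pileup divided by the genome background in place of the deposited scale, these 2 genes were called, at a limma adjusted p of 0.0299 each, and the median over the 29 genes moved to 0.28.

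Presence of a peak differed between the genotypes mostly in the direction of depth. A TSS peak in all 3 CabZ Het libraries and in no CabZ KO library was found at 180 genes (1.27% of protein-coding genes), and the opposite at 7 genes (0.0495%). Over all 187090 merged peak regions of the series, the same 2 patterns were held by 2.06 and 0.11% of regions. Among the 5566 regions with a TSS peak, they were held by 4.53 and 0.126%, and a peak in all 6 libraries was held by 3.45% of TSS regions against 0.893% of other regions. The 180 genes include the opposed pair 2810006K23Rik and Mphosph9, whose shared peak measured 5.51, 6.55 and 10.9 in CabZ Het. Pebp1, encoding a kinase inhibitor protein, followed with 5.12, 5.82 and 9.38, and the opposed pair Helq and Mrps18c, a DNA helicase gene and a mitochondrial ribosomal protein gene, had 3.15, 5.82 and 9.09. Of the 12 strongest of these genes, 6 had a peak in the gene body or within 5 kb upstream in all 6 libraries or in 5 of them, and 4 (Sco2, Helq, Mrps18c and Sun1) had one in the 3 CabZ Het libraries only. Gene bodies held 126724 of the 316630 peaks. The share of all genes with such a peak is not given, so these counts have no background to be read against.

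The 7 genes with a TSS peak in the CabZ KO libraries only were Pdcd10, Rbm15b, Ypel5, Tldc1, Cenpt, Hsd3b7 and Taok1. Pdcd10, a signalling adaptor of the vasculature, had fold enrichments of 7.49, 4.50 and 6.4 in CabZ KO. For Cenpt, an inner kinetochore protein, they were 3.75, 4.50 and 6.4, and for Ypel5 4.21, 4.95 and 5.90, on pileups of 7 to 15. Cenpt RNA was at 2.70 ± 0.505 FPKM in CabZ Het and 5.13 ± 0.775 in CabZ KO (SD, n = 4), a log2 difference of 0.73 with a limma adjusted p of 0.00642 that did not reach a 2-fold change on the log2(FPKM + 1) scale. Ypel5 RNA was at 96.8 and 86.9 FPKM (limma adjusted p = 0.522). When every annotated transcript start of a gene was counted, Ypel5 and Cenpt had a peak in 5 libraries and Hsd3b7 in 4, so 2, 2 and 1 CabZ Het libraries had a peak at another start of these genes.

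Genes with a TSS peak had more RNA in oocytes of the same genotype and stage, measured in separate libraries of other oocytes. In CabZ Het oocytes, the median level of genes with a peak in replicates A, B and C was 0.696, 0.726 and 0.673 FPKM, against 0.265, 0.233 and 0.180 FPKM for genes without one. In CabZ KO oocytes it was 0.910, 1.14 and 1.19 FPKM with a peak and 0.258, 0.291 and 0.285 FPKM without. The ratio of medians was thus 2.63 to 4.17, in the same direction in 6 of 6 libraries. Between 43.6 and 53.2% of genes with a peak were above 1 FPKM, compared with 27.1 to 32% of genes without, so peaks were also found at many genes with little RNA. Genes are not replicates and the 6 libraries share their RNA values, therefore no test was made.

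By class of CabZ Het expression, the share of genes with a TSS peak rose from 12.2 ± 7.52% (SD over the 3 CabZ Het libraries) of 4881 genes above 0 and up to 0.1 FPKM to 20.5 ± 12.8% of 4600 genes up to 1 FPKM, 25.8 ± 16.0% of 3233 genes up to 10 FPKM and 28.8 ± 16.2% of 1177 genes up to 100 FPKM. It was 28.3 ± 11.6% of the 178 genes above 100 FPKM. In CabZ KO libraries the shares of the same classes were 3.55 ± 2.28, 6.65 ± 4.80, 9.58 ± 6.29, 12.9 ± 6.71 and 15.9 ± 8.78%. Within each single library, the share rose at every step up to 100 FPKM. Above 100 FPKM it rose again in 4 libraries and was lower in CabZ Het C (40.4 after 46.1%) and CabZ KO B (7.87 after 7.99%). Genes above 10 FPKM exceeded those at or below 0.1 FPKM by 16.6 ± 8.08 percentage points in CabZ Het and 9.76 ± 4.70 in CabZ KO.

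**Figure D4:**
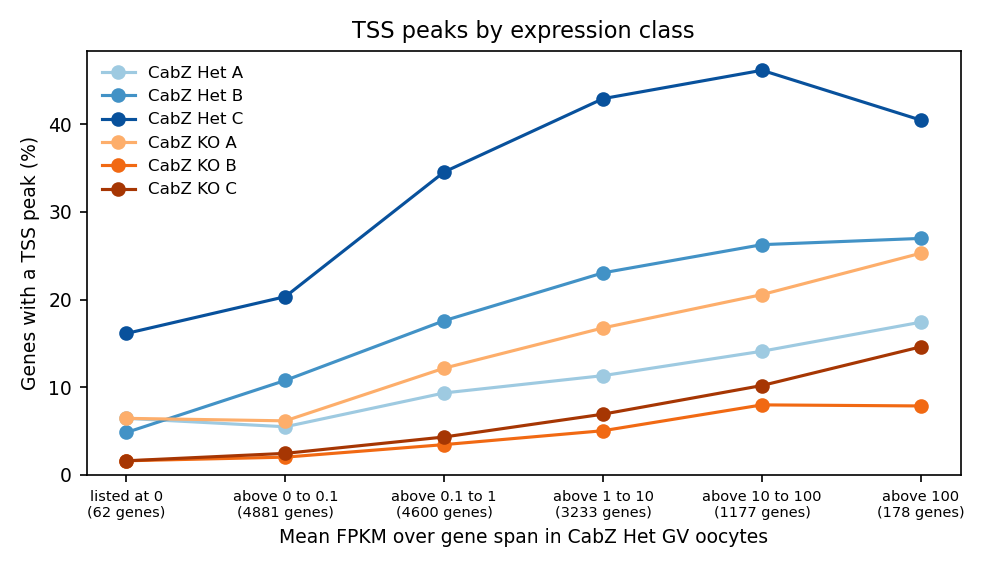
Percentage of genes with a TSS peak (y axis) in classes of mean CabZ Het expression (x axis, FPKM over the gene span, with the number of genes), with 1 line per ATAC-seq library. In each library the share rises from the class above 0 to 0.1 FPKM to the class above 10 to 100 FPKM, and the libraries differ in level with their number of peaks.

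Among genes that had a TSS peak, the height of the peak followed expression weakly. Spearman's rho between fold enrichment and FPKM, across 530 to 4593 genes of 1 library, was 0.0278, 0.0649 and 0.0902 in CabZ Het and 0.0632, 0.0206 and 0.0401 in CabZ KO. The genes of a library share its depth, and many share the same low pileup, so these weak correlations are given as a description.

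Abundant oocyte transcripts were not always matched by a peak. Of the 178 genes above 100 FPKM in CabZ Het, 75 had no TSS peak in any library, so that 57.9% had one, compared with 43.3% of all protein-coding genes. Of these 75, 41 had a peak elsewhere in the gene or within 5 kb upstream in at least 1 library, a count without a share of all genes beside it. The highest of the 75 were Sap18b (3786 FPKM), the homeobox gene Obox2 (1206 FPKM) and Gm10184 (1151 FPKM). The others in order were mt-Cytb, Oog3, Gm2000, mt-Atp6, Zp3, the metallothionein Mt1 and Pttg1, the securin that inhibits separase. The authors removed mitochondrial alignments, so mt-Cytb and mt-Atp6 could not have a peak, and they removed alignments that were not unique, while Sap18b, Obox2, Oog3, Gm10184 and Gm2000 are members of families or copies of other genes; the part of this step in their missing peaks was not tested. Zp3, encoding the zona pellucida receptor for sperm, was at 581 FPKM and had peaks in the gene or within 5 kb upstream in all 6 libraries, but none at its start.

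Of 18 oocyte marker genes, 16 had a TSS peak in at least 1 library (88.9%, beside 43.3% of all protein-coding genes), although 16.7% had a CpG-rich start. Gdf9, a growth factor secreted by the oocyte, had fold enrichments of 4.36 in CabZ Het B, 5.28 in CabZ Het C, 4.68 in CabZ KO A and 4.95 in CabZ KO B, and no peak in the other libraries. H1foo had 3.27 in CabZ Het B, 4.69 in CabZ Het C, 4.05 in CabZ KO B and 5.41 in CabZ KO C. Tle6, of the subcortical maternal complex, had values of 4.72, 5.46 and 6.45 in CabZ Het and 10.3 in CabZ KO A. Dppa3, a factor that guards DNA methylation, was found in CabZ Het C (4.69) and CabZ KO B and C (7.20 and 4.43). Khdc3 and Ooep, of the same maternal complex, had TSS peaks only in CabZ KO libraries, in 2 and 1 of them, on pileups of 7 to 9 for Khdc3. Zp3 and Kit had none. Of the 8 granulosa and cumulus cell genes in the table, 3 had a TSS peak, among them Inhba in 3 libraries, and their summed level was 0.575 to 0.766 FPKM in CabZ Het and 0.898 to 1.24 FPKM in CabZ KO libraries, against 6323 to 7326 and 5856 to 6092 FPKM for the oocyte genes.

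Of all protein-coding genes, 43.3% had a TSS peak in at least 1 library, as did 56.7% of those above 1 and up to 10 FPKM and 62.0% of those above 10 and up to 100 FPKM. Among genes for general cell functions, peaks in at least 1 library were found at 58 of 85 cytosolic ribosomal protein genes, 53 of 78 mitochondrial ribosomal protein genes, 55 of 87 genes of oxidative phosphorylation, 24 of 45 proteasome genes, 26 of 33 tRNA synthetase genes, 13 of 20 nuclear pore genes and 16 of 21 genes of the spliceosome. These shares lie between 53.3 and 78.8%. The lists of ribosomal protein, oxidative phosphorylation and proteasome genes have median levels of 10.0 to 13.2 FPKM. Those of the spliceosome, nuclear pore and tRNA synthetases have medians of 7.44, 1.21 and 0.470 FPKM. The tRNA synthetase list thus has the highest share and the lowest median of these lists. Of all genes above 0.1 and up to 1 FPKM, 45.4% had a TSS peak in at least 1 library. CabZ Het C, the library with the most peaks, had a TSS peak at 44, 47, 49, 23, 24, 10 and 13 genes of these lists, in the order of the counts above. Over all protein-coding genes it had one at 4593 of the 6125. A peak in at least 4 libraries was found at 5.88, 3.85, 10.3, 8.89, 3.03, 5 and 4.76% of the lists, beside 3.52% of all protein-coding genes. Rpl21 was found in 5 libraries and Atp5g1, a subunit of ATP synthase, in all 6. The corresponding count was 18 of 42 for genes of DNA methylation and chromatin modification, with the demethylase gene Kdm1b in 4 libraries, and 19 of 43 for replication-dependent histone genes. In Zfp zinc finger genes it was 114 of 317.

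Genes of other tissues rarely had a TSS peak. Lineage regulators had 1 of 19 (Sox17, in 1 CabZ KO library), Hox genes 0 of 11, keratins 5 of 33, vomeronasal receptors 3 of 48 and olfactory receptors 13 of 104. Hox genes and lineage regulators had median levels of 0.0453 and 0.0147 FPKM in CabZ Het, and 54.5 and 57.9% of their start sites were CpG-rich. For keratins, vomeronasal receptors and olfactory receptors the medians were 0.0612, 0.0225 and 0.0997 FPKM, and 0, 2.08 and 0% of starts were CpG-rich. The part of base composition in these counts was not tested. Of 16 two-cell-stage genes, which are switched on in the embryo after fertilisation, 5 had a TSS peak, with Eif1a, Ddit3 and Gm5039 in 2 libraries each. Of the 10 genes of the Hira complex and H3.3 supply, 7 had one. Asf1b, a histone chaperone, had fold enrichments of 6.30, 8.0 and 10.9 in CabZ Het and 5.15 in CabZ KO A. Cabin1 itself was found in CabZ Het A and C (4.33 and 5.86) and in CabZ KO A (5.62), and Hira in CabZ Het C and CabZ KO A (4.69 and 3.75).

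Start sites with peaks were richer in CpG dinucleotides. CpG-rich starts were taken as those with at least 50% G and C and an observed-to-expected CpG ratio of at least 0.6 within 500 bp of the start, which held for 59.6% of genes. In CabZ Het, 10.5, 21.2 and 40.6% of CpG-rich starts had a peak, compared with 6.73, 11.4 and 20.6% of CpG-poor starts. In CabZ KO, these shares were 14.5, 4.17 and 5.53% compared with 8.25, 3.14 and 3.93%. Of the 29 genes in all 6 libraries, 27 were CpG-rich. The rise with expression was present in both classes: the difference between genes above 10 FPKM and at or below 0.1 FPKM was 17.0 percentage points in CabZ Het and 9.33 in CabZ KO at CpG-rich starts, and 12.9 and 10.2 at CpG-poor starts.

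Opposed gene pairs were also more frequent. A second protein-coding gene started on the other strand within 1000 bp upstream for 5.23% of the 8006 genes with no TSS peak, 13.1% of the 5628 genes with a peak in 1 to 3 libraries, 16.9% of the 497 in 4 to 6 libraries and 24.1% of the 29 in all 6. Such genes may share 1 peak. X-linked genes made up 4.38% of genes with no TSS peak, 2.61% of those in 1 to 3 libraries and 1.41% of those in 4 to 6 libraries. Repeat sequence covered a median of 9.79% of the bases within 500 bp of the start in genes with no TSS peak and 6.39% in those with 4 to 6.

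Of the 11 short motifs counted within 250 bp upstream to 50 bp downstream of the start, on both strands, the CCAAT box and the GC box differed most in percentage points between starts with a peak in 4 to 6 libraries and starts with none. The CCAAT box was present in 39.1% of all starts. It was found in 34.8% of the 7993 starts with no TSS peak outside the mitochondrial genome, 40.7% with a peak in 1 library, 46.6% in 2, 48.3% in 3, 54.7% in 4, 57.9% in 5 and 72.4% in all 6 (21 of 29). In single libraries, 45.9 to 53.8% of genes with a TSS peak had it, and 35.8 to 38.7% of genes without. Among CpG-rich starts only, it was found in 57.3% of 384 genes with a peak in 4 to 6 libraries and 31.1% of 4072 genes with none. At least 2 CCAAT boxes were found in 10.7% of starts with no TSS peak and 37.9% of the 29.

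CCAAT boxes began most often between 100 and 50 bp upstream of the start, in genes with no TSS peak as well as in genes with one. In genes with a peak in 4 to 6 libraries, 27.4% had one that began between 100 and 50 bp upstream of the start, compared with 17.4% in genes with a peak in 1 to 3 libraries and 11.7% in genes with none. From 50 bp upstream to the start, the values were 19.9, 14.8 and 8.62%. Downstream, in the first 50 bp of the gene, they were 9.66, 5.29 and 4.22%. The order of the groups was the same in every 50-bp step, so the difference was not limited to 1 distance. The sequence of Dtl printed above holds 1 CCAAT box and that of Fam72a 4. The GC box GGGCGG, bound by SP and KLF factors, was present in 54.0% of all starts, in 49.6% with no TSS peak, 59.4% with 1 to 3 and 63.4% with 4 to 6 libraries, but among CpG-rich starts it was as frequent with no peak (73.6%) as with 4 to 6 (73.4%). The ETS motif CCGGAAG was found in 11.7, 20.1 and 18.3% of the same 3 groups. For the NRF1 core GCATGCGC the shares were 3.35, 6.49 and 6.84%, and for the CRE TGACGTCA 2.45, 3.98 and 3.62%. The E2F motif TTCCCGC, added after the genes in all 6 libraries were seen, was found in 6.48, 8.56 and 10.1%. The YY1 core AAGATGGC was found in 3.19, 5.01 and 3.62% and the E-box CAGGTG, which FIGLA can bind, in 18.9, 21.1 and 22.3%. The TATA box TATAAA was found in 10.7, 6.81 and 5.03%, and among CpG-rich starts in 5.55% with no peak and 4.17% with 4 to 6 libraries. The homeobox motif TAATTG, bound by NOBOX, was found in 6.52, 5.93 and 7.04%, and TAATTA in 4.25, 2.88 and 3.02%. Matches of different motifs may overlap, as do the windows of opposed pairs, and a match describes letters and not binding.

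**Figure D5:**
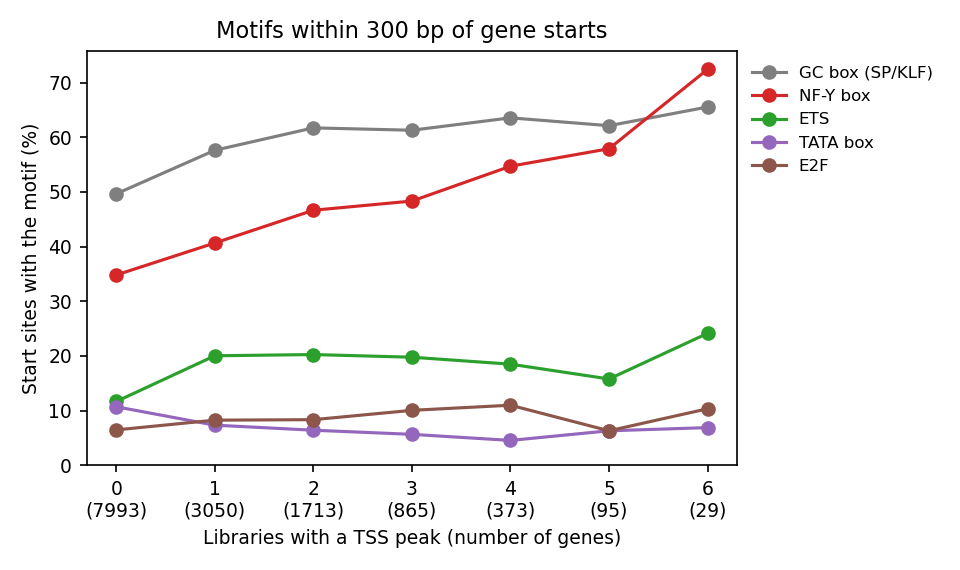
Percentage of start sites (y axis) with a match to 5 motifs between 250 bp upstream and 50 bp downstream, by the number of libraries with a TSS peak (x axis, number of genes in brackets). The NF-Y box rises from 34.8 to 72.4%, the GC box from 49.6 to 65.5%, and the TATA box is lower in genes with a peak than in genes without.

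Expression changes between the genotypes were compared between genes with and without TSS peaks. In limma on log2(FPKM + 1) over the 6339 genes of the table with a mean of at least 1 FPKM, 2.07% of genes were higher and 0.836% lower in CabZ KO, where a call required passing 0.05 after Benjamini-Hochberg adjustment and a change of more than 2-fold. Of the 2680 tested genes with a TSS peak in at least 1 library, 23 were higher (0.858%) and 18 lower (0.672%). Of the 1959 tested protein-coding genes with no TSS peak, 45 were higher (2.3%) and 19 lower (0.97%). Of the 266 with a peak in 4 to 6 libraries, 0 were higher and 2 lower (0.752%), and 20 (7.52%) had an adjusted p under 0.05 with any fold change. Over all 4639 protein-coding genes tested, 1.47% were higher, 0.798% were lower and 12.8% had a limma adjusted p under 0.05. On the values as deposited, 0 genes with a TSS peak were called by limma in either direction, while 504 of 2680 had an unadjusted p under 0.05 and 209 an adjusted one, none of these with a change above 2-fold on that scale. The median log2 difference was -0.04 in genes with a peak, -0.02 in genes with none and -0.03 over all protein-coding genes tested. If the RNA-seq libraries are pools, less RNA of a gene in each oocyte cannot be told apart from fewer oocytes that express it.

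The 2 lower genes with peaks in at least 4 libraries were Snai3 and Coa6. Snai3, a zinc finger gene of the Snail family, was at 8.20, 10.5, 9.60 and 8.19 FPKM in CabZ Het and 6.98, 2.69, 1.79 and 2.56 FPKM in CabZ KO (log2 difference -1.29, SE 0.28, limma adjusted p = 0.0129). Its TSS peak measured 5.46 in CabZ Het B, 5.57 in CabZ Het C, 6.09 in CabZ KO A and 5.41 in CabZ KO C. Coa6, an assembly factor of cytochrome c oxidase, was at 5.58, 4.69, 3.21 and 4.80 FPKM in CabZ Het and 1.95, 1.16, 1.39 and 1.13 FPKM in CabZ KO (log2 difference -1.20, SE 0.16, limma adjusted p = 0.00119), and its peak measured 4.33, 4.73 and 5.28 in CabZ Het and 3.75 in CabZ KO A. For both genes all CabZ KO libraries were below all CabZ Het libraries. Of the 29 genes with a peak in all 6 libraries, 16 were tested and 0 were called in limma. Fbxo5 came nearest, at 31.4 ± 2.81 FPKM in CabZ Het and 43.7 ± 4.02 in CabZ KO (SD, n = 4, limma adjusted p = 0.0192, log2 difference 0.47), and was the only one with an adjusted p under 0.05.

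Genes whose peak was present in a single genotype showed no common direction of RNA. Of the 180 genes with a TSS peak in the CabZ Het libraries only, 69 were tested, 2 were higher in CabZ KO (2.90%), 0 were lower, and the median log2 difference was -0.03. Over all tested protein-coding genes, 1.47% were higher and 0.798% lower. The 2 higher genes were Hp and Speer4a, at 8.11 and 4.21 FPKM in CabZ Het and 17.9 and 10.1 FPKM in CabZ KO, so their RNA was higher where no TSS peak was called. Of the 7 genes with a TSS peak in the CabZ KO libraries only, 4 were tested and 0 passed both thresholds in limma, with a median log2 difference of 0.08. None of the 17 tested oocyte genes was called in limma, and their median log2 difference was -0.27. Over all tested protein-coding genes 2.26% were called, too few for sets of 4 or 17 genes to show a lower share. Of the 9 tested two-cell-stage genes, 3 were higher in CabZ KO (33.3%, beside 1.47% of all tested protein-coding genes). Among them were Gm5039 (1.40 and 16.6 FPKM, limma adjusted p = 1.11e-05) and Ddit3 (24.6 and 56.9 FPKM, limma adjusted p = 0.00134), which had TSS peaks in 2 libraries each. The paper already names these 2 genes as upregulated in its mutant oocytes, so their calls are not an independent finding.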

How the data were processed

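ATAC-seq (6 libraries) and RNA-seq (8 libraries) of CabZ GV oocytes were analysed. The members and gene lists were chosen with earlier results of these data known. The authors aligned ATAC-seq reads to mm10 (GRCm38) with Bowtie2 2.3, discarded PCR duplicates and alignments that were mitochondrial or not unique, and called peaks per library with MACS2 against 1 genome-wide background. The deposited peak lists give fold enrichment, -log10 p, -log10 q and a score per peak. ATAC-seq read numbers are not known, and intervals cover counting error only.

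RNA-seq was aligned with STAR 2.5.3a and adjusted in Partek by the authors, per the paper's methods to FPKM. The deposited RNA values are a score instead: reads divided 2 times by gene span, scaled, plus 0.01. FPKM were restored by subtracting 0.01 and multiplying by span, and 8965334 to 12310306 reads per library could be recovered, 82.0 to 85.2% of values near whole numbers. The tests fixed for FPKM were run on these values.

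A gene start is the one given in the table. Exons were taken from GENCODE and sequences from RefSeq GRCm38. limma 3.58.1 (R 4.3.3) was fitted to log2(FPKM + 1) for genes averaging 1 FPKM or more, and to log2 fold enrichment, with Benjamini-Hochberg adjustment. Single values were compared by exact permutation tests (scipy 1.17.1). On simulated data, the RNA fit over 6339 genes recovered 89% of genes changed by 1 and 99% of those changed by 2 on the log2 scale, and the fit over 29 genes recovered 1 of 4 and 4 of 4.

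Genes were named by rule: the 10 highest in all 6 libraries, up to 10 present in 1 genotype only, the largest called changes, the 10 highest RNA levels without a TSS peak, genes listed at 0 and members of the lists. Tmem231, Gins2, Fbxo5, Ogg1, Atp5g1, Snai3, Coa6, Hp, Speer4a and, for its RNA, 4931408C20Rik were named after their values were seen. Alternatives covered the TSS distance, the peak threshold, equal peak numbers, pseudocount, filter, scaling, replicate block and leaving out each library. Some genes that the rule names are not reported here. Files of other embryos and oocytes of the series were not used here.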

Additional observations from a re-analysis of the deposited data

Results flagged for a closer look

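In 2 genes named above, 1 RNA-seq library stood apart from the other libraries of its genotype by Dixon's test, which chance passes in about 1 of 20 groups. Crocc was at 0.0200 FPKM in CabZ KO replicate 4 and at 0 to 0.00249 FPKM in the other CabZ KO libraries. Pttg1 was at 362 FPKM in CabZ KO replicate 2 and at 492 to 502 FPKM in the others.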

How the results depend on the processing

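The number of genes with a TSS peak in the CabZ Het libraries only (180) became 114 within 250 bp, 280 within 1000 bp, 11 at -log10 q of at least 5 and 79 with equal peak numbers, and the CabZ KO count (7) became 2 within 250 bp, 0 at -log10 q of at least 5 and 12 at any transcript start, an alternative chosen after seeing the data. Leaving out 1 library gave 202 to 857 (857 without CabZ Het A, 417 without CabZ Het B, 312 without CabZ KO A) and 7 to 28 (28 without CabZ KO B, 21 without CabZ KO C, 16 without CabZ Het C, 13 without CabZ KO A). At -log10 q of at least 5, genes above 10 FPKM exceeded those at or below 0.1 FPKM by 5.77 points in CabZ Het and 1.17 in CabZ KO. The mean of log2 fold enrichment, chosen after seeing the data, gave 0.108 for TSS against other peaks, past the threshold. Pileup over background gave 2 limma calls between genotypes. RNA calls among genes with a TSS peak (23 higher, 18 lower) became 0 and 0 as deposited, 11 and 9 at a mean of at least 5 FPKM and 43 and 32 with a pseudocount of 0.1. The cause of these shifts was not tested. The number of genes and the share of peaks at a TSS stayed lower in CabZ KO in each alternative run, where no p could fall below 0.1.

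Replicate labels did not pair the libraries: same-label correlations were -0.23, -0.23 and 0.05 for fold enrichment and 0.01, -0.02, -0.18 and 0.14 for RNA. With the replicate block, limma called 0 fold enrichments and 24 higher and 19 lower RNAs.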
